A study of Drosophila melanogaster with 4 samples.

Results

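The translation factors carry the ribosome through its work on an mRNA, from the choice of the start codon to the release of the finished protein. In this set, 42 genes were measured out of 8240 genes with a value on at least 3 arrays. They were chosen by name: a gene entered if its current FlyBase symbol starts with eIF (initiation), eEF (elongation) or eRF (release), if its spot carries that gene alone, and if 3 or more arrays gave a value. The RefSeq gene table lists 54 such genes, and 12 of them have no spot of their own among those used here: eIF1A, eIF2alpha, eIF2gamma, eIF2Bbeta, eIF3f2, eIF3g2, eIF4G2, eIF4H1, eEF1alpha1, eEF1beta, eEF1gamma and eEF2. All 42 measured genes had a value on each of the 4 arrays, 35 from 1 spot and 7 from several, 50 spots in all.

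The samples were *Drosophila* embryos carrying the actin reporter sGMCA, collected over 0 to 1 h of laying, with the chorion taken off by hand, and kept under halocarbon oil. Wounded embryos were ablated with a laser and frozen at once (0 min), and unwounded embryos went through the same handling without the laser. Total RNA of embryos collected together in each condition (30 ug) was reverse transcribed and coupled to a dye, and a wounded and an unwounded sample shared each spotted cDNA array. Experiments 3, 7 and 8 put wounded RNA in Cy3 and unwounded RNA in Cy5, while experiment 4, the dye swap, put wounded RNA in Cy5 and unwounded RNA in Cy3. The study describes the embryos as syncytial, with many nuclei in a shared cytoplasm, so each value averages over whole embryos, the wound and its surroundings together. It describes the 4 experiments as independent replicates without naming separate cages or parents. The p-values rest only on the spread between these 4 arrays, with each gene's spread moderated by limma towards that of all genes.

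Initiation starts when eIF1, eIF1A, eIF3 and eIF5 join the small ribosomal subunit with the ternary complex of eIF2, GTP and the initiator tRNA, while the eIF4 factors bring in the capped mRNA. eIF2B reloads eIF2 with GTP, and phosphorylation of eIF2 blocks this step when cells are stressed. The eEF factors then add the amino acids, and eRF1 with eRF3 ends the chain at a stop codon. The early fly embryo lives on mRNAs left by the mother, with little transcription of its own, so the use of these mRNAs is the main point at which its gene expression is set.

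Each value below is the deposited log2 ratio of the 2 dyes, normalised within its array, and 0 means equal signal from both samples. It is a difference between the conditions and not a level. The sources used here do not say whether the ratio is Cy5 over Cy3 or wounded over unwounded, so no gene is called higher in wounded or in unwounded embryos. Means over the arrays were taken with the sign of experiment 4 turned, as a Cy5 over Cy3 ratio needs, and again with it not turned, and a sign below is that of the deposited ratio. Among the 3 arrays with the same dyes, experiments 7 and 8 ran against each other over all genes (Pearson r = -0.33 across 8226 genes, -0.27 across 11807 spots). Over all genes, experiment 8 correlated at r = -0.087 with experiment 3 and -0.12 with experiment 4, and experiment 7 at 0.30 and -0.12. Experiments 3 and 4 correlated at r = 0.13. The sign of experiment 8 was not tested and is treated here as uncertain. The means that it moves most are also given with experiment 8 turned, a reading chosen after these values were seen.

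No translation factor passed the test of wounded against unwounded embryos (limma, adjusted p under 0.05 and a mean of at least 1.5-fold, a log2 size of 0.585). The count was 0 of 42 with experiment 4 turned and 0 of 42 with it not turned, and among all genes it was 0 of 8240 in both, a background of 0.00%. At an unadjusted p under 0.05 there was 1 factor, eIF1, with experiment 4 turned, against a background of 4.93% of all genes. There was also 1 with experiment 4 not turned, eRF3, against 2.51%. The 95% confidence interval of the mean lay within 1.5-fold in both directions for 42 of 42 factors under either reading, where the background was 92.2% with experiment 4 turned and 91.9% with it not turned. The interval that reached farthest with experiment 4 turned, that of eIF5B, ended at 0.50. With the sign of experiment 8 turned as well, 41 of 42 intervals lay within that limit (background 90.8%), and with experiment 8 turned but experiment 4 not, 41 of 42 did too (background 90.6%). The exception in both was eIF2beta.

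**Figure D1:**
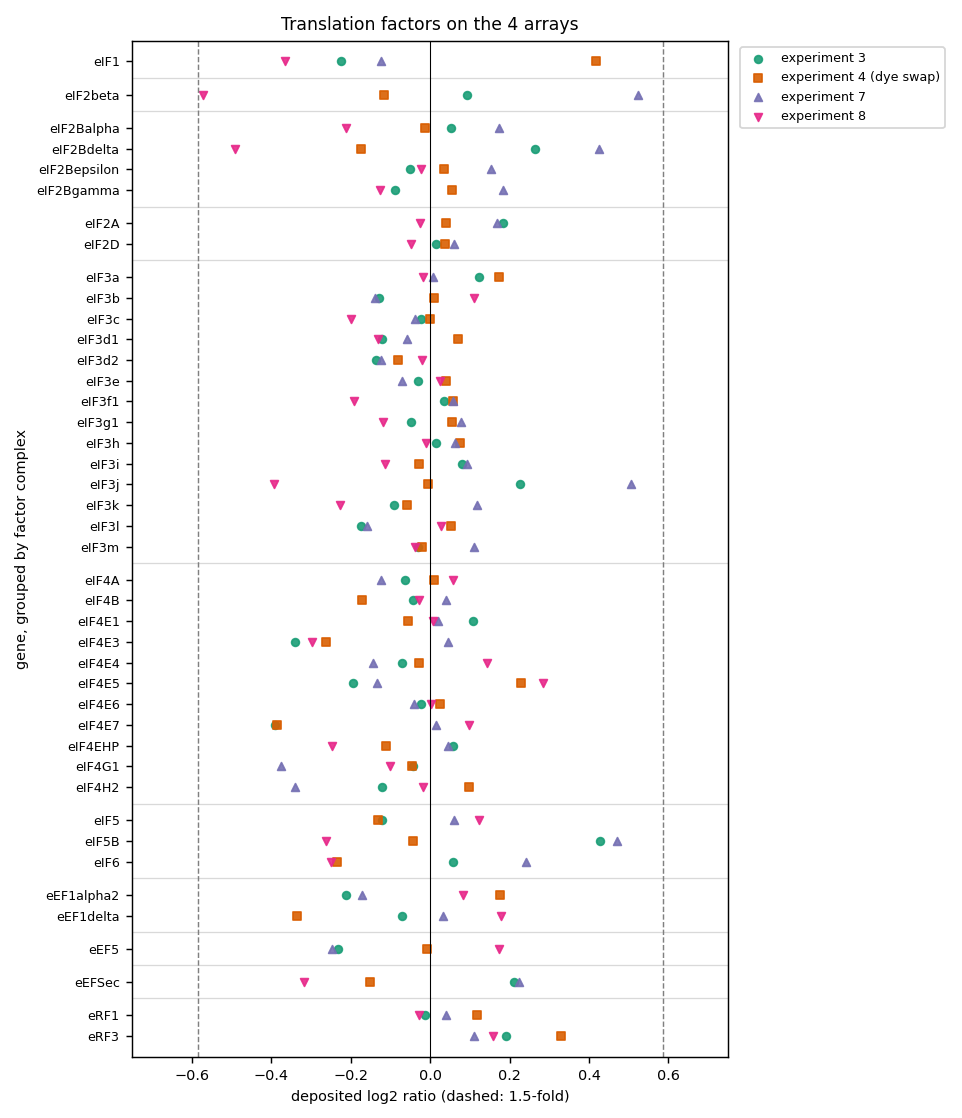
Deposited log2 ratio (horizontal axis) of each of the 42 translation factors (vertical axis, grouped by complex) on experiments 3, 4, 7 and 8, 1 symbol per array, with dashed lines at 1.5-fold. No point passes the lines, and the widest rows are those of eIF2beta, eIF2Bdelta, eIF3j, eIF1 and eIF5B.

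**Figure D2:**
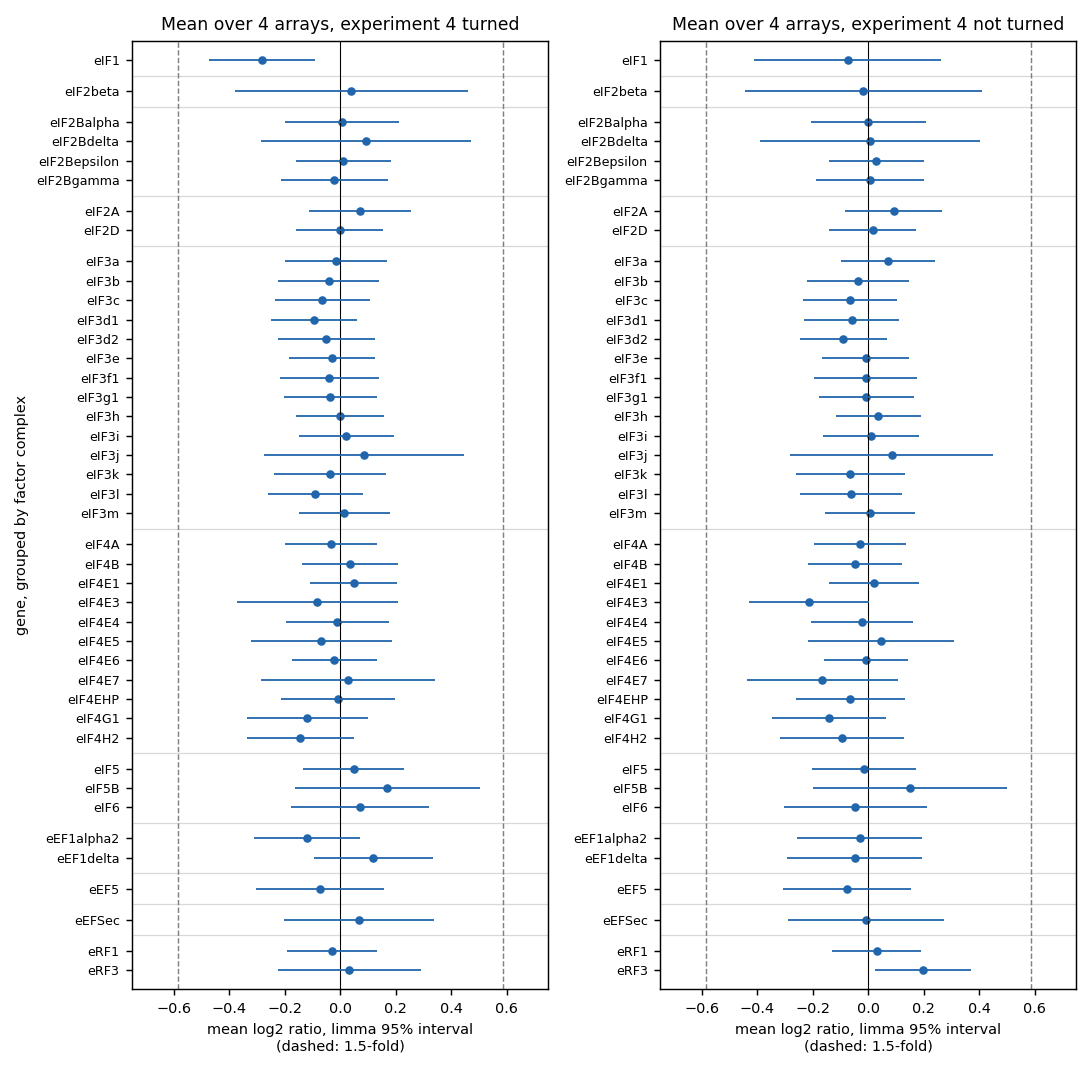
Mean log2 ratio over 4 arrays (horizontal axis) of each translation factor (vertical axis) with its 95% confidence interval from limma, with experiment 4 turned and not turned, and dashed lines at 1.5-fold. All intervals lie inside the lines, and those of eIF1 (turned) and eRF3 (not turned) leave out 0.

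The factors had fewer large ratios than all genes. No factor passed 1.5-fold on any array (0 of 42), where 13.0% of all genes did so on at least 1. These are averages of the spots of a gene, and clone RE51676 of eIF4G1 alone gave -0.69 on experiment 7. A spot outside the 42, named eIF4H1 only by the study's clone list, gave -1.09 on experiment 7 and 0.73 on experiment 8. On the single arrays that background was 5.47% on experiment 3, 2.56% on experiment 4, 5.06% on experiment 7 and 3.33% on experiment 8. The SD of the 42 ratios was 0.16, 0.15, 0.20 and 0.19 on experiments 3, 4, 7 and 8, against 0.34, 0.25, 0.28 and 0.25 for all genes. The median size of a ratio was 0.092, 0.058, 0.12 and 0.12 for the factors and 0.12, 0.13, 0.15 and 0.12 for all genes, so on experiment 8 the typical factor was no nearer to 0. The median range over the 4 arrays was 0.25 for the factors and 0.40 for all genes. No intensities were used here, so neither the brightness of these spots nor the levels of marker genes of the embryo could be set beside the ratios.

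eIF1, which guards the choice of the start codon, was the factor with the smallest p when experiment 4 was turned and experiment 8 was not. Its ratio was -0.22 on experiment 3, 0.42 on experiment 4, -0.12 on experiment 7 and -0.37 on experiment 8. The 3 arrays with the same dyes were all negative and the dye swap was positive, so turning it gives 4 values of 1 sign, with a mean of -0.28 ± 0.13 (SD, n = 4). By limma the unadjusted p was 0.0108 and the adjusted p 0.915, and with experiment 4 not turned the mean was -0.074 with an adjusted p of 0.997. With experiment 8 also turned the mean was -0.100 with an unadjusted p of 0.476 by limma, and with experiment 8 turned and experiment 4 not it was 0.11 with an unadjusted p of 0.437. Of these 4 readings, eIF1 has an unadjusted p under 0.05 only where experiment 4 is turned and experiment 8 is read as deposited. eIF1 is 1 of 4 factors with 1 sign on all 4 arrays once experiment 4 is turned, beside eIF3d1, eIF4E1 and eIF4H2, against a background of 12.0%. For eIF3d1 this holds for the average of its 2 clones and not for clone GM13889 alone.

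The ternary complex itself was seen through 1 subunit, eIF2beta, which had the widest range of all the factors. Its ratio was 0.094 on experiment 3, -0.12 on experiment 4, 0.52 on experiment 7 and -0.57 on experiment 8. The arrays of experiments 7 and 8, with the same dyes, lay on opposite sides of 0 and 1.10 apart, and the mean was 0.040 ± 0.45 (SD, n = 4) with experiment 4 turned and -0.018 with it not turned. With experiment 8 also turned the mean was 0.33, with an unadjusted p of 0.0231 and an adjusted p of 0.514 by limma. That reading was chosen after the data were seen and gives experiments 7 and 8 the same sign here. Its p-value is therefore only a description. A spot that only the study's clone list names as eIF2gamma, the GTP-binding subunit, gave 0.23, -0.00021, 0.34 and -0.17 on experiments 3, 4, 7 and 8. It too was positive on experiment 7 and negative on experiment 8.

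eIF2B, the exchange factor that reloads eIF2, was measured in 4 subunits. All 4 were positive on experiment 7 and all 4 negative on experiment 8, with complex means of 0.23 and -0.21. The background of genes with these signs was 33.6%. The regulatory subunit eIF2Bdelta was the widest of them, at 0.26, -0.17, 0.43 and -0.49 on experiments 3, 4, 7 and 8. eIF2Balpha, also regulatory, gave 0.053, -0.014, 0.17 and -0.21. The catalytic subunit eIF2Bepsilon kept between -0.051 and 0.15, and its partner eIF2Bgamma between -0.13 and 0.18. Over the 4 arrays the complex averaged 0.023 with experiment 4 turned, and 0.13 with experiment 8 also turned. Without experiment 8 it averaged 0.10, and without experiment 7 -0.048, so its size and sign rest on these arrays. Besides eIF2, eIF2A and eIF2D can place a tRNA on the ribosome, as described in mammals. eIF2A ranged over 0.21 and eIF2D over 0.11, one of the narrowest spans of the set.

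eIF3, the large scaffold on the small ribosomal subunit, was the best covered complex, with 14 genes. Without eIF3j its other 13 genes lay between -0.23 and 0.17 on every array. On experiment 8, 11 of the 14 were negative, as were 28 of 42 factors and 4435 of 8229 genes. The eIF3 median there was -0.077, against -0.016 for all genes. eIF3j, a loosely bound subunit near the mRNA channel, was the exception in range. Its ratio was 0.23 on experiment 3, -0.0045 on experiment 4, 0.51 on experiment 7 and -0.39 on experiment 8. The same-dye arrays again lay on both sides of 0, and its mean was 0.086 ± 0.38 (SD, n = 4) with experiment 4 turned and 0.28 with experiment 8 also turned.

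Of the other eIF3 subunits, eIF3h, eIF3e and eIF3d2 were among the 5 steadiest factors, and eIF3k had the widest range, 0.34. eIF3h, eIF3e and eIF3d2 ranged over 0.083, 0.11 and 0.12 across the 4 arrays, and the core subunit eIF3i lay between -0.11 and 0.093. The paralogs eIF3d1 and eIF3d2, of the subunit that in human cells can bind the cap, were both negative on experiments 3, 7 and 8. eIF3d1 gave -0.12, 0.070, -0.058 and -0.13 on experiments 3, 4, 7 and 8, and eIF3d2 gave -0.14, -0.080, -0.12 and -0.021. They differed in sign on experiment 4 only. The values of eIF3d1 average a clone, RH47720, at -0.13, 0.13, -0.13 and -0.32 and a clone, GM13889, at -0.12, 0.014, 0.018 and 0.061, which is positive on experiments 7 and 8. The narrow range of eIF3e is also that of an average, since its clone AT01736 alone ran between -0.19 and 0.10 and its clone GM01233 between -0.021 and 0.072. eIF3l gave -0.17, 0.053, -0.16 and 0.026, so it did not keep 1 sign over the same-dye arrays.

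The 11 eIF4 genes include the cap-binding eIF4E family, the helicase eIF4A with its cofactors eIF4B and eIF4H2, and the scaffold eIF4G1. On experiment 3, 9 of the 11 were negative, as were 26 of 42 factors and 4707 of 8240 genes. The eIF4 median there was -0.062, against -0.029 for all genes. eIF4E1, the main cap-binding form, gave 0.11, -0.056, 0.021 and 0.0069 on experiments 3, 4, 7 and 8. eIF4E6 was the steadiest of all 42 factors, with a range of 0.065. Both stayed within 0.11 of 0 on every array.

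Further eIF4E forms ranged more widely, each with its own order of arrays. eIF4E3, known for its role in fly spermatogenesis, gave -0.34, -0.26, 0.046 and -0.30 on experiments 3, 4, 7 and 8, with a mean of -0.21 ± 0.18 (SD, n = 4) when experiment 4 was not turned. By limma that mean had an unadjusted p of 0.0517 and an adjusted p of 0.997. With experiment 4 turned the eIF4E3 mean was -0.083 with an unadjusted p of 0.510 by limma. With experiment 8 turned and experiment 4 not, that mean was -0.065 with an unadjusted p of 0.606 by limma, and with both turned 0.066. eIF4E7 gave -0.39, -0.39, 0.014 and 0.097, the lowest value of the set on both experiments 3 and 4. eIF4E5 gave -0.19, 0.23, -0.13 and 0.28, negative on experiments 3 and 7 and positive on experiments 4 and 8. Relatives within this family share sequence, and whether each cDNA spot reports its own gene alone was not tested.

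Of the eIF4A cofactors, eIF4H2 gave -0.12, 0.099, -0.34 and -0.017 on experiments 3, 4, 7 and 8, and eIF4B lay between -0.17 and 0.041. With experiment 4 turned, eIF4H2 had 4 values of 1 sign and a mean of -0.14 ± 0.14 (SD, n = 4), with an adjusted p of 0.998 by limma. A spot that only the clone list names as its relative eIF4H1 gave -0.13, 0.25, -1.09 and 0.73. That spot would be the widest of the set, and experiments 7 and 8 stood on opposite sides of 0.

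The scaffold eIF4G1, which ties the cap-binding protein to the helicase and to the ribosome, gave -0.043, -0.047, -0.38 and -0.10 on experiments 3, 4, 7 and 8, the lowest factor on experiment 7. This mean hides a disagreement between its 2 clones. Clone GM10051 gave 0.064, -0.41, -0.059 and 0.29, whereas clone RE51676 gave -0.15, 0.32, -0.69 and -0.49. They had opposite signs on experiments 3, 4 and 8, and their largest gap was 0.79. The value of RE51676 on experiment 7 was past 1.5-fold. With experiment 4 turned, RE51676 was negative on all 4 arrays with a mean of -0.41, while GM10051 averaged 0.18. eIF4G1 was the 1 gene of 7 with clones at least 1.5-fold apart on any array, against a background of 22.7% of genes with several spots. The clones of eEF5, by contrast, lay within 0.15 of each other on every array.

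**Figure D3:**
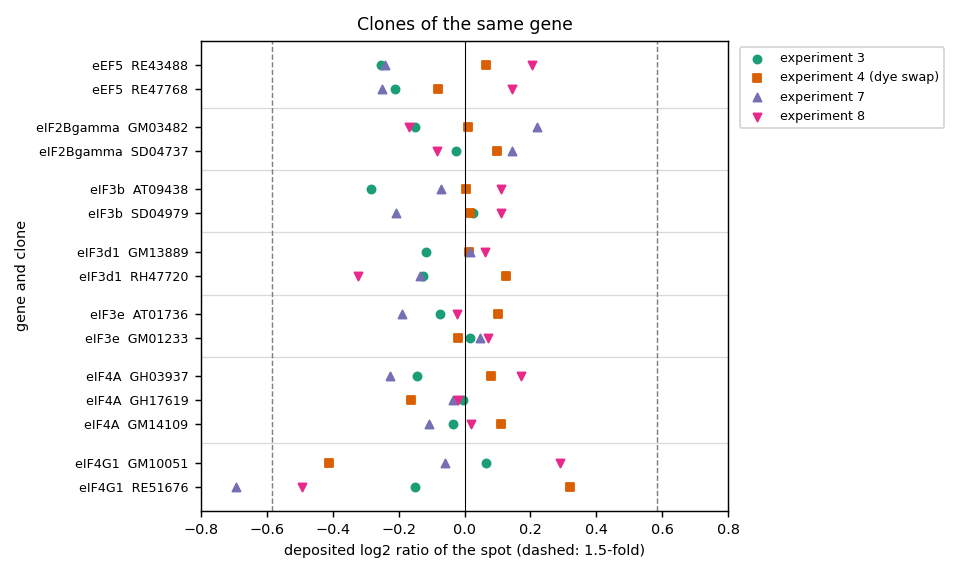
Deposited log2 ratio (horizontal axis) of each clone (vertical axis) of the 7 translation factors with several spots, 1 symbol per array, with dashed lines at 1.5-fold. The clones of eIF4G1 differ by up to 0.79, and RE51676 on experiment 7 is the only spot drawn outside the lines.

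Late initiation factors were led by eIF5B, the GTPase that joins the ribosomal subunits. Its ratio was 0.43 on experiment 3, -0.043 on experiment 4, 0.47 on experiment 7 and -0.26 on experiment 8. It was the highest factor on experiment 3 and changed sign on experiment 8, with a mean of 0.17 ± 0.35 (SD, n = 4) with experiment 4 turned and 0.30 with experiment 8 also turned. eIF6, which keeps the large subunit from joining too early, gave 0.056, -0.23, 0.24 and -0.25. eIF5, which stimulates GTP use by eIF2, gave -0.12, -0.13, 0.061 and 0.12, negative on experiments 3 and 4 and positive on experiments 7 and 8.

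Among the elongation factors, eEF1alpha2, which brings aminoacyl-tRNA to the ribosome, gave -0.21, 0.17, -0.17 and 0.082 on experiments 3, 4, 7 and 8. eEF1delta, part of the exchange complex for that factor, gave -0.071, -0.34, 0.033 and 0.18. The pair had opposite signs on experiments 4 and 7. eEF5, the fly name of the hypusine-bearing factor that helps stalled ribosomes, gave -0.23, -0.0083, -0.25 and 0.17. eEFSec, the elongation factor for selenocysteine, gave 0.21, -0.15, 0.22 and -0.32. eEF5 and eEFSec were opposite in sign on experiments 3, 7 and 8, and each changed sign between experiments 7 and 8.

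The release factors differed in size from each other. eRF3, the GTPase that works with eRF1, was positive on every array, at 0.19, 0.33, 0.11 and 0.16 on experiments 3, 4, 7 and 8. All 4 values lay on the same side of 0, and with experiment 4 not turned the mean was 0.20 ± 0.094 (SD, n = 4). By limma the unadjusted p of that mean was 0.0309 and the adjusted p 0.997, and with experiment 4 turned the mean was 0.032. With experiment 8 turned and experiment 4 not, the mean was 0.12 with an unadjusted p of 0.246 by limma, and with both turned it was -0.047. eRF1, which reads the stop codon, kept between -0.028 and 0.12. eRF3 is 1 of 4 factors with 1 sign on all arrays as deposited, beside eIF3c, eIF3d2 and eIF4G1, against a background of 10.0%. For eIF4G1 the single sign as deposited is that of the average, and neither clone has it as deposited.

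Across the set, 31 of 42 factors had opposite signs on experiments 7 and 8, where the background was 60.6%. Of these, 22 were positive on experiment 7 and negative on experiment 8 (background 33.6%) and 9 were the reverse (background 27.0%). The 4 factors at least 1.5-fold apart on these arrays were eIF2beta, eIF2Bdelta, eIF3j and eIF5B, a share near the background of 13.3%. Each of the 4 was positive on experiments 3 and 7 and negative on experiments 4 and 8, with means of 0.25, -0.085, 0.48 and -0.43 on experiments 3, 4, 7 and 8. They were picked by their gap between experiments 7 and 8, so the distance between the means on those arrays follows from the choice. A single sign on experiments 3, 7 and 8 was seen for 8 of 42 factors, near the background of 22.1%.

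Over the 42 factors, ratios of experiments 3 and 7 correlated at r = 0.67 (0.30 across all genes) and those of experiments 7 and 8 at r = -0.64 (-0.33 across all genes). Without the 4 wide factors, 38 genes gave r = 0.49 and r = -0.37. These are descriptions across genes of the same arrays, which share RNA and hybridisation, and genes are not independent replicates. With the sign of experiment 8 turned as well as that of experiment 4, 8 factors had an unadjusted p under 0.05 against a background of 9.56%. They were eIF2beta, eIF2Bdelta, eIF3j, eIF4E5, eIF5B, eIF6, eEF1alpha2 and eEFSec, each with an adjusted p of 0.514 by limma, so none was called. All of them had opposite signs on experiments 7 and 8 as deposited, and turning experiment 8 brings these to 1 sign. The turned reading was chosen after the data were seen, so this count is a description and not a test.

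**Figure D4:**
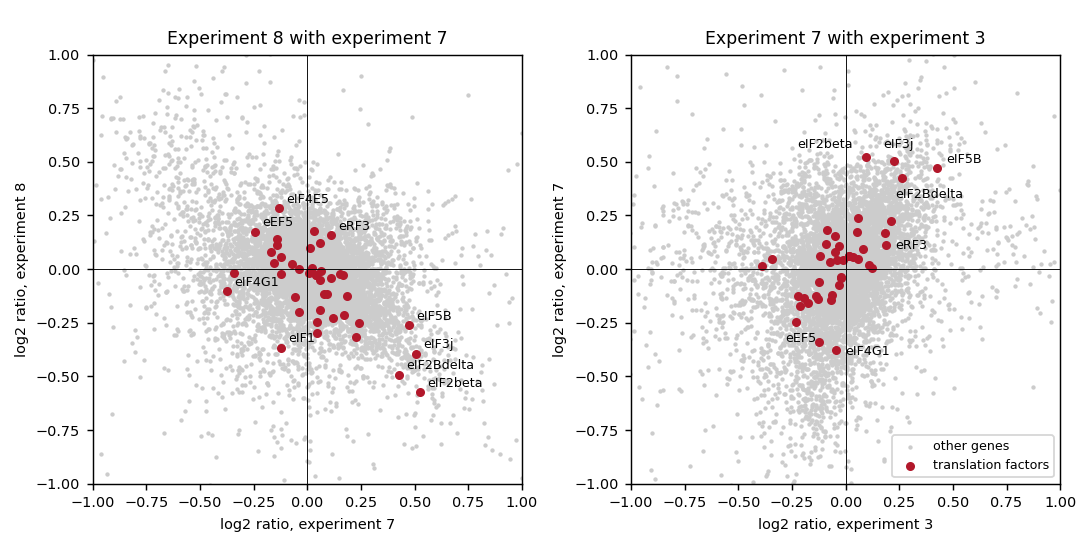
Deposited log2 ratios of experiment 8 against experiment 7 (left) and of experiment 7 against experiment 3 (right), 1 point per gene, with translation factors in red and all other genes in grey, both axes cut at -1 and 1. The factors run downward on the left (r = -0.64) and upward on the right (r = 0.67). The highest factors on experiment 7 are eIF2beta, eIF2Bdelta, eIF3j and eIF5B. Of these, eIF5B at -0.26 on experiment 8 and eIF2beta at 0.094 on experiment 3 lie short of the end of the cloud.

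Genes that act on the factors or beside them were set against them, from lists of 21 regulators and 20 cytoplasmic aminoacyl-tRNA synthetases. Of the regulators 18 were measured, 13 of them negative on experiment 7, where 3892 of 8237 genes were negative. The regulator medians were 0.046, 0.074, -0.11 and 0.079 on experiments 3, 4, 7 and 8. The lowest of these 18 on experiment 7 were 4E-T and cup, which bind eIF4E. 4E-T gave -0.28, -0.19, -0.62 and 0.23, and cup gave 0.13, -0.32, -0.54 and 0.100. mxt, which also binds eIF4E, gave 0.30, 0.096, 0.21 and -0.16, positive on experiment 7. A spot that only the clone list names as Thor, the fly eIF4E-binding protein, gave 0.88, 1.46, -0.90 and 0.36, positive on 3 arrays and negative on experiment 7. Of the 18 measured synthetases, which charge the tRNAs, 15 were positive on experiment 3, 15 on experiment 7, and 17 negative on experiment 8. Among all genes, 42.9% were positive on experiment 3, 52.7% were positive on experiment 7, and 4435 of 8229 were negative on experiment 8. The synthetase medians were 0.22, 0.037, 0.16 and -0.14 on experiments 3, 4, 7 and 8. Neither list held a gene with an unadjusted p under 0.05 by limma under either reading of experiment 4 (0 of 18 in each). The background was 4.93% with experiment 4 turned and 2.51% with it not turned, so 0 of 18 does not set these lists apart.

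Other gene groups differed between the arrays too. Of 20 early zygotic genes, which the embryo starts to transcribe itself, 10 were measured, and their medians were -0.21, -0.022, -0.53 and 0.49 on experiments 3, 4, 7 and 8. They were thus negative on experiment 7 and positive on experiment 8, the reverse of the synthetases and of eIF2B. Of 12 genes of differentiated tissues 7 were measured, with medians of 0.37, 0.40, 0.099 and -0.094. The part of embryo age or of other tissue in the factors' values was not tested.

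**Figure D5:**
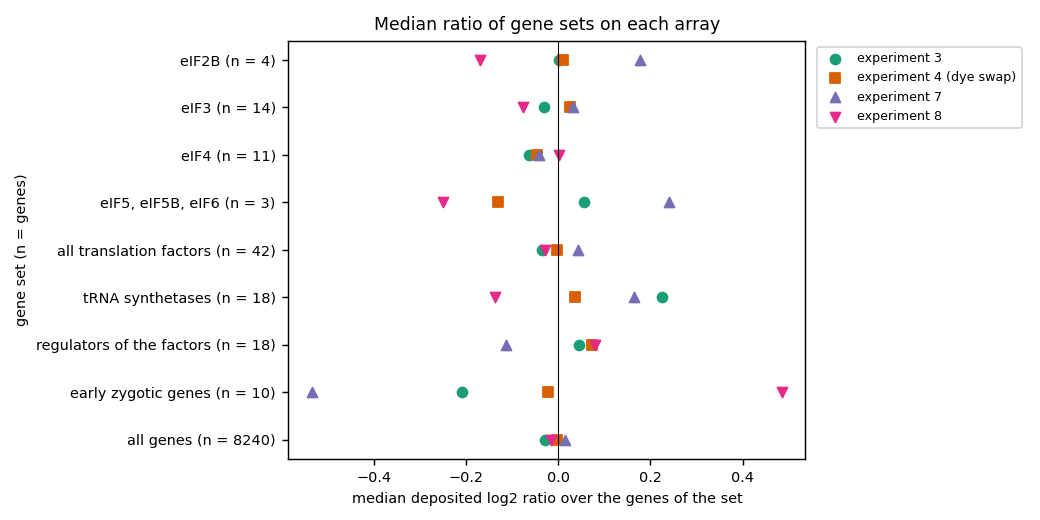
Median deposited log2 ratio (horizontal axis) of factor complexes and of comparison lists (vertical axis, with the number of genes), 1 symbol per array. The early zygotic genes lie at -0.53 on experiment 7 and 0.49 on experiment 8, opposite to eIF2B and the synthetases, while all genes lie near 0.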

How the data were processed

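Each of the 4 arrays compared wounded with unwounded embryos at 0 min. The authors scanned them with a GenePix scanner, and deposited log2 ratios that were loess normalised within each array in limma (version not stated in the sources). Per the paper, the pipeline removes dim and flagged spots, and whether the deposited log2 ratios were filtered so is not known. Intensities were not used here, so neither levels nor depth can be given, and the number of arrays limits the precision.

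Of 12144 spots, 160 controls were left out. The platform annotation gave 1 gene for 9917 of the other 11984 spots, several for 625 and none for 1442, and 8 spots that carry a factor with another gene were not used. Symbols of 9746 spots were updated through the RefSeq table and 171 were kept. Spots of a gene were averaged per array, and the 8240 genes with values on 3 or more arrays went into a limma 3.58.1 model in R 4.3.3 (lmFit, eBayes, mean against 0, two-sided, Benjamini-Hochberg over all 8240), which was tested on simulated data. A call needed an adjusted p under 0.05 and 1.5-fold.

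Named factors were the 2 highest and 2 lowest means of each complex, the 4 highest and 4 lowest on each array, those at an unadjusted p under 0.05, the 5 smallest ranges, and those whose clones differ by 1.5-fold. eIF3c, eIF3k and the spots named only by the clone list fall outside this rule and were chosen after their values were seen. The genes and lists were chosen with earlier results of these data known. Alternatives were the sign of experiment 4, each array left out, a dye term, robust eBayes, the median of spots, single spots, equal array spread and values on all 4 arrays. The sign of experiment 8, the added genes and the single eIF4G1 clones were alternatives chosen after seeing the data.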

Additional observations from a re-analysis of the deposited data

Results flagged for a closer look

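The 42 factors and the complexes of more than 1 gene, 49 items in all, were searched for an array far from the other 3 with experiment 4 turned. The search found 5 of 49, where chance alone gives about 5% of such groups. The items are not independent, since each complex mean is made of factors that are also counted on their own. eIF2Bepsilon stood apart on experiment 7, with a deposited ratio of 0.15, as the highest of its 4 values. eEF1alpha2 stood apart on experiment 8 with 0.082, as did eEFSec on experiment 8 with -0.32. eRF3 stood apart on experiment 4, the dye swap, with 0.33, since turning its sign sets it against 3 other positive values. The mean of eRF1 and eRF3 stood apart on the same array with 0.22. With experiment 4 not turned, eRF3 has 4 positive values.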

How the results depend on the processing

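The factors called stayed at 0 of 42 under every alternative run. Among all genes the count was also 0 of 8240 under each sign of experiments 4 and 8, so it does not set the factors apart. The number at an unadjusted p under 0.05, 1 as reported, was between 1 and 3 when each array was left out, and reached 3 without experiment 8 (eIF1, eIF2Bdelta and eIF5B). With experiment 4 not turned, leaving out each array gave between 0 and 2: 0 without experiment 3, 2 without experiment 7 (eIF4E3 and eRF3) and 0 without experiment 8. The share of all genes at this p was not counted with an array left out, so these counts do not set the factors apart. With experiment 8 also turned the number of factors was 8, against a background of 9.56%. With experiment 8 turned and experiment 4 not, the number was 2 (eIF3j and eIF5B), against a background of 10.8%. The mean of eIF3 was -0.027 as reported and 0.032 with experiment 8 turned and experiment 4 not. The cause of these moves was not tested. Of the values for set means and counts under alternatives, 148 stayed within 1 SD over the arrays of the reported value (within 1.5 times for a count) and 7 moved, and of those for single genes 462 stayed and 28 moved. That SD is wide where arrays disagree, so a mean near 0 such as that of eIF2beta stays within it at 0.33 with experiment 8 also turned. Each array pairs a wounded with an unwounded sample, so the test of the mean ratio against 0 is already paired, and no further replicate block applies. With 4 arrays and no intensities, dim spots could not be set apart.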
